A study of Mus musculus with 9 samples.

Results

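The transcripts of the phagocyte NADPH oxidase and of the Fc gamma receptors were followed as 9 genes in mouse brain after injection of a baculovirus vector. The oxidase genes were Ncf1, Ncf4, Cyba and Cybb, and the receptor genes were Fcgr1, Fcgr2b, Fcgr3, Fcgr4 and their shared signalling chain Fcer1g. Members were all probe sets with 1 of these symbols as their only gene symbol in the platform annotation, which gave 18 of the 45101 probe sets on the array and 9 of the 18193 genes named there. A probe set is a group of short probes on the array that together report 1 signal. Dim probe sets were left out unless 3 or more arrays read them above the 40th percentile of that array. The filter passed 16 of the 18 members and left out Cybb 1422978_at and Fcgr2b 1447622_at. Ncf1 1425609_at passed only through the 3 arrays of the HS group, so a difference there was built into its selection.

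All mice were adult male immunocompetent BALB/c animals that received a stereotaxic needle injection into both striata, and tissue around the injection sites was taken 2 days later. The vector, BV-HSVtk, was given at 100000000 viral particles in 10 µL per side. High-speed centrifugation was the only purification for the HS group, whereas membrane chromatography came before it for the MC+HS group. Mock mice received Sf9 insect cell medium without baculovirus that had been through the MC+HS procedure. Vector and purification therefore differed together between HS and mock and cannot be told apart there. There were 3 mice per group with 1 array each, and the labels call them biological replicates. The design asked how the purification affected the brain's response to the vector.

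The phagocyte oxidase moves electrons from NADPH across the membrane of a phagosome onto oxygen and so makes superoxide. Cybb and Cyba encode its membrane core, and Ncf1 and Ncf4 encode cytosolic subunits that join the core when a phagocyte is activated. Fc gamma receptors bind IgG on opsonized particles. In the mouse, Fcgr1, Fcgr3 and Fcgr4 are activating receptors that signal through the Fcer1g chain, whereas Fcgr2b carries its own inhibitory motif. In the brain these genes are expressed mainly by microglia, by macrophages of the brain's borders and by infiltrating leukocytes.

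The sequences just upstream of 5 of the genes are shown because interferon and the myeloid factor PU.1 are known regulators of phagocyte genes. RefSeq's table of promoters on GRCm38.p6 held 8 of the 9 members. It had no entry for Ncf4. The windows are the 250 bases before the annotated start, read in the direction of the gene: chr1:171018676-171018925 on the plus strand for Fcgr4, and on the minus strand chr3:96293970-96294219 for Fcgr1, chrX:9469325-9469574 for Cybb, chr5:134229626-134229875 for Ncf1 and chr1:170976072-170976321 for Fcgr2b. Capitals mark matches, on either strand, to a pair of GAAA separated by 2 bases of any kind, to TTCNNNGAA or to GAGGAA.
Fcgr4: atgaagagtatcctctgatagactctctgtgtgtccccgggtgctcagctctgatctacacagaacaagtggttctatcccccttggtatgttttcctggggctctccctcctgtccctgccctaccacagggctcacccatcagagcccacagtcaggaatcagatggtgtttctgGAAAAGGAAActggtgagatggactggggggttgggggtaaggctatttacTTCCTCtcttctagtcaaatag
Fcgr1: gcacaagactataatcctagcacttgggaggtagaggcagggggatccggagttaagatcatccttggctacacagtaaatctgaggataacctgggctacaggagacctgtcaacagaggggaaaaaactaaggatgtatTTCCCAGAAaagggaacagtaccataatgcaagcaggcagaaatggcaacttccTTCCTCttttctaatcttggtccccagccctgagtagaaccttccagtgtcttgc
Cybb: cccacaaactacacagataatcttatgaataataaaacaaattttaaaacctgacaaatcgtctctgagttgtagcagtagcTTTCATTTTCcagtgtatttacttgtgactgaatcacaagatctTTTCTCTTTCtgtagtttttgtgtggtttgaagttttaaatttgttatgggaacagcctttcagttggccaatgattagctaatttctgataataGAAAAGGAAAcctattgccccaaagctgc
Ncf1: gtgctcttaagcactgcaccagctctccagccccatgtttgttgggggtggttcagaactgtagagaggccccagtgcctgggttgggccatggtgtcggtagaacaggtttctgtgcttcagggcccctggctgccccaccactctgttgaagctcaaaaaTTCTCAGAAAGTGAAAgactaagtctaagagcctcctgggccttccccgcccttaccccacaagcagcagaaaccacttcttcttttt
Fcgr2b: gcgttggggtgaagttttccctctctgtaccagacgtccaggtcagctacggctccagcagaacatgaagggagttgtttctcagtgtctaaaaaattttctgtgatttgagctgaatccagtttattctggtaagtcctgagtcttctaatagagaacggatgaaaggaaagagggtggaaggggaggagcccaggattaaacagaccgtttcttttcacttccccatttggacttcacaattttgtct
The spaced GAAA pair is the core of the interferon-stimulated response element, TTCNNNGAA the gamma-activated site bound by STAT factors, and GAGGAA the core of PU.1 sites. They occurred in 2.98%, 7.02% and 23.3% of all 32851 windows of this length in the table. Fcgr4 held 1 response element core and 1 PU.1 core, Fcgr1 held 1 gamma-activated site and 1 PU.1 core, and Cybb held 3 response element cores. In Ncf1 a response element core and a gamma-activated site overlapped. Fcgr2b, Cyba and Fcer1g had no match in these windows, and the overlapping windows of the 2 Fcgr3 starts shared a PU.1 core. The Cybb window lay inside the annotated span of that gene, chrX:9435252-9487766, and the Fcgr3 windows lay inside theirs. For Cybb and Fcgr3 the windows thus precede a start within the gene and not its outermost end. A match is a description of letters and was not tested as a binding site or against the size of a gene's change.

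The array of HS replicate 1 was unlike the other 8. It correlated with them at a median of 0.757 over the tested probe sets, where every other array had a median of 0.956 to 0.979. Its log2 signals were compressed, with an SD of 1.54 where the others had 2.17 to 2.39. Its Gapdh 3'/5' signal ratio was 2.00, against 0.865 to 0.932. The members are therefore given with and without this array. Signals below are intensity units after the array medians were aligned. Differences are in log2(signal + 16) with standard errors from limma, and adjusted p values are Benjamini-Hochberg values over all 28257 tested probe sets. With the medians aligned over the whole array, the median tested probe set still lay 0.21 below mock in HS, and at 0.03 above mock without HS replicate 1.

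Ncf4, Fcgr4 and Fcgr1 rose in the brains that received vector, and 1 of 4 tested Fcgr2b probe sets rose with them. The comparison of both vectors with mock, which sets the mean of the HS and MC+HS groups against mock in the same fit, called 4 of 16 member probe sets higher and 0 lower, beside 0.994% of all tested probe sets higher. Within HS against mock the count was 3 of 16 (0.747% of all), and within MC+HS against mock it was 2 of 16 (0.556% of all). These comparisons share the mock arrays. The median member probe set differed by 0.90, 0.92 and 0.92 in HS, MC+HS and both vectors against mock, where the median of all tested probe sets was -0.21, -0.02 and -0.12. All 6 vector arrays lay above all 3 mock arrays for 6 of the 16 members, beside 2.59% of all tested probe sets.

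With HS replicate 1 left out, 11 of 15 tested member probe sets rose in HS against mock (2.97% of all), 11 of 15 in MC+HS against mock (2.51% of all) and 12 of 15 in both vectors against mock (3.64% of all). They covered 7, 7 and 8 of the 9 genes. Ncf1 1425609_at did not pass the filter without that array. The gene with no probe set past the threshold in any of these comparisons was Ncf1. On 13 of the 16 members the 5 remaining vector arrays lay above all mock arrays, beside 6.88% of all tested probe sets.

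**Figure D1:**
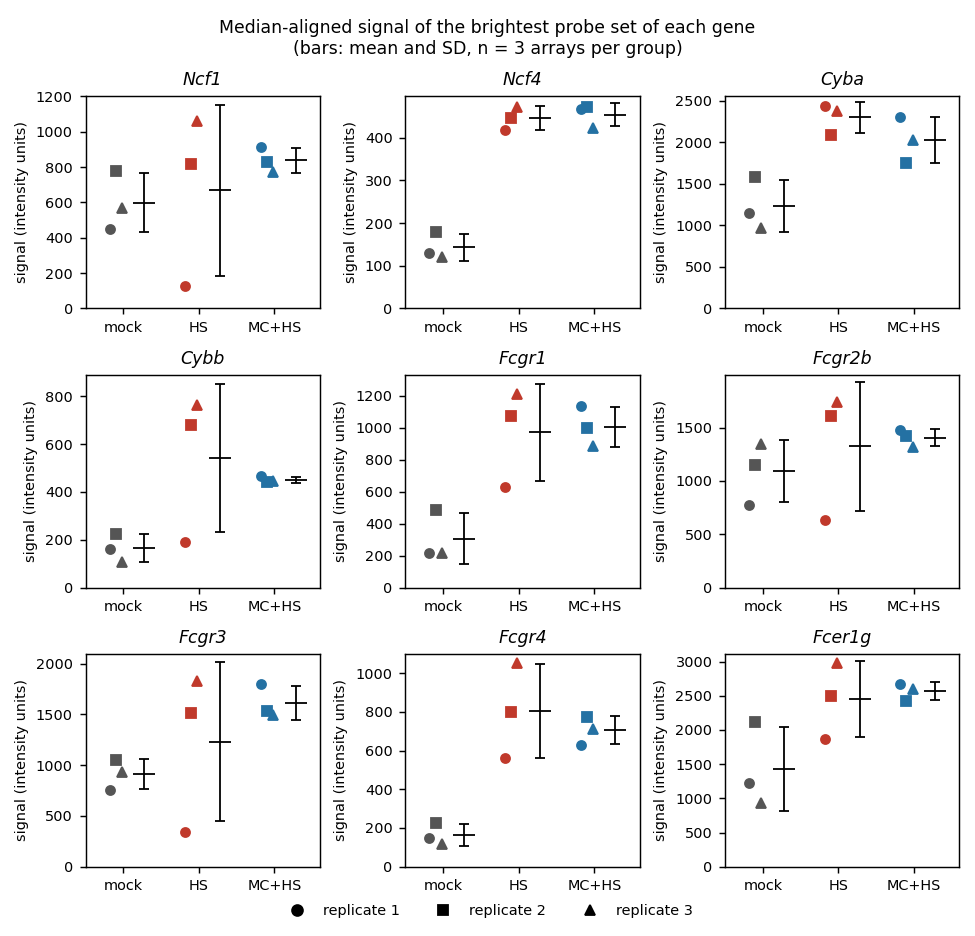
Median-aligned signal (intensity units, linear axis from 0) of the brightest probe set of each member gene on the 9 arrays. Points are arrays, with the replicate shown by the marker shape, and bars are the mean and SD of 3 arrays. Ncf4 and Fcgr4 separate the vector arrays from mock, and HS replicate 1 sits at 125 for Ncf1 and 344 for Fcgr3, below every mock array.

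Of the cytosolic oxidase subunits, Ncf4 changed and Ncf1 did not pass the test. Ncf4, whose product binds phosphoinositide lipids of the phagosome, gave 131, 178 and 119 on the mock arrays, 417, 447 and 473 on the HS arrays and 467, 471 and 423 on the MC+HS arrays (replicates 1 to 3). Every vector array was more than 2-fold above the highest mock array, and the array that stood apart was close to its group. Ncf4 was 2.97-fold higher over both vectors (log2 difference 1.57 ± 0.14, limma adjusted p = 0.00144), with 1.56 ± 0.16 in HS (adjusted p = 0.00413) and 1.58 ± 0.16 in MC+HS (adjusted p = 0.00649). The call over both vectors held with each array left out, whereas that in MC+HS was lost without mock replicate 1 (adjusted p = 0.0567) or MC+HS replicate 2 (adjusted p = 0.0615). It had the smallest standard error of the 16 members.

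Ncf1, the organizer subunit, was read by 3 probe sets that disagreed. The brightest, 1456772_at, gave 449, 779 and 566 in mock, 125, 817 and 1060 in HS and 914, 830 and 772 in MC+HS. Apart from HS replicate 1, the vector arrays lay above the mock mean of 598 ± 168 (SD, n = 3), but MC+HS replicate 3 lay just under mock replicate 2. The difference over both vectors was 0.13 ± 0.56 (limma adjusted p = 0.961), and 0.58 ± 0.16 without HS replicate 1 (adjusted p = 0.0779). Ncf1 1451767_at differed by 0.74 ± 0.30 (adjusted p = 0.735) and was highest on HS replicate 1, at 341 against 67 to 163 on the other arrays. HS replicate 1 was thus the lowest array for 1 probe set of this gene and the highest for the other 2.

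The membrane core did not pass with all 9 arrays and passed without HS replicate 1. Cybb, the catalytic subunit, gave 161, 225 and 107 in mock, 190, 678 and 763 in HS and 466, 440 and 447 in MC+HS at its brightest probe set, 1436778_at. The MC+HS arrays lay close together, at 451 ± 13.2 (SD, n = 3), whereas HS replicate 1 lay inside the mock range. Cybb differed by 1.45 ± 0.40 over both vectors (limma adjusted p = 0.264), and rose 3.37-fold without HS replicate 1 (1.75 ± 0.18, adjusted p = 0.000167). The second Cybb probe set, 1436779_at, gave 0.96 ± 0.35 (adjusted p = 0.612) with all arrays and 1.23 ± 0.15 without that array (adjusted p = 0.000484). The unfiltered Cybb 1422978_at was dim throughout, from 40.8 to 42.2 in mock, 52.2 to 157 in HS and 60.1 to 80.4 in MC+HS.

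Cyba, the core subunit that stabilizes the catalytic chain and docks Ncf1, gave 1144, 1585 and 973 in mock, 2432, 2086 and 2370 in HS and 2297, 1749 and 2031 in MC+HS. All 6 vector arrays were above all mock arrays, by little for MC+HS replicate 2. The difference was 0.82 ± 0.22 over both vectors (limma adjusted p = 0.24). Without HS replicate 1, Cyba rose 1.74-fold (0.80 ± 0.15, adjusted p = 0.00997), a value of nearly the same size with a smaller error.

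Among the activating receptors, Fcgr4 moved furthest. Fcgr4, which binds IgG2a and IgG2b in the mouse, gave 150, 226 and 115 in mock, 564, 800 and 1052 in HS and 630, 775 and 711 in MC+HS. The lowest vector array was above the highest mock array by more than 2-fold. Fcgr4 was 4.35-fold higher over both vectors (log2 difference 2.12 ± 0.24, limma adjusted p = 0.00451), with 2.20 ± 0.28 in HS (adjusted p = 0.00986) and 2.05 ± 0.28 in MC+HS (adjusted p = 0.0194). The call over both vectors held with each array left out. The call in HS was lost without mock replicate 1, mock replicate 3 or HS replicate 2 (adjusted p up to 0.0652), and that in MC+HS without mock replicate 1, mock replicate 3 or any MC+HS array (adjusted p up to 0.134).

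Fcgr1, the high-affinity IgG receptor, gave 214, 488 and 214 in mock, 629, 1074 and 1208 in HS and 1131, 996 and 886 in MC+HS at 1417876_at. Mock replicate 2 was 2.28 times the mean of the other mock arrays, and the groups still did not overlap. Fcgr1 was 3.29-fold higher over both vectors (1.72 ± 0.31, limma adjusted p = 0.0359) and did not pass in HS alone (1.67 ± 0.36, adjusted p = 0.0998) or MC+HS alone (1.77 ± 0.36, adjusted p = 0.0865). With mock replicate 2 left out it passed in both, at 2.05 in HS (adjusted p = 0.0273) and 2.14 in MC+HS (adjusted p = 0.0242). The call over both vectors was lost without mock replicate 1 (1.53, adjusted p = 0.268), without mock replicate 3 (1.53, adjusted p = 0.255) and without any one vector array other than HS replicate 1. A second Fcgr1 probe set, 1436625_at, moved less, by 0.70 ± 0.26 (adjusted p = 0.604), and by 0.89 ± 0.12 without HS replicate 1 (adjusted p = 0.000862).

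Fcgr3, the low-affinity activating receptor, gave 753, 1051 and 931 in mock, 344, 1510 and 1833 in HS and 1804, 1537 and 1493 in MC+HS. HS replicate 1 was the lowest of all arrays, and the other vector arrays were all above mock. The difference was 0.47 ± 0.47 over both vectors (limma adjusted p = 0.926), and without HS replicate 1 Fcgr3 rose 1.80-fold (0.84 ± 0.12, adjusted p = 0.00191).

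Fcer1g, the shared chain, gave 1230, 2119 and 932 in mock, 1869, 2495 and 2978 in HS and 2671, 2420 and 2605 in MC+HS. Mock replicate 2 lay above HS replicate 1, so the groups overlapped. Its difference of 0.88 ± 0.29 over both vectors did not pass (limma adjusted p = 0.451), and without HS replicate 1 it rose by 0.97 ± 0.21 (adjusted p = 0.0222).

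The inhibitory receptor gene Fcgr2b was read by 4 tested probe sets whose differences ran from 0.29 to 1.66. The brightest, 1435476_a_at, gave 777, 1151 and 1345 in mock, 630, 1611 and 1735 in HS and 1475, 1422 and 1320 in MC+HS, and the groups overlapped. It differed by 0.29 ± 0.34 over both vectors (limma adjusted p = 0.926), and by 0.52 ± 0.15 without HS replicate 1 (adjusted p = 0.092). The next brightest, 1435477_s_at, has the same target accession in the annotation, as does 1455332_x_at. It gave 268, 519 and 233 in mock, 378, 1360 and 1278 in HS and 1260, 1192 and 1327 in MC+HS. Its difference of 1.66 ± 0.42 did not pass (adjusted p = 0.176), and without HS replicate 1 it rose 3.88-fold (1.96 ± 0.20, adjusted p = 0.000192).

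Fcgr2b 1455332_x_at gave 186, 315 and 204 in mock, 476, 725 and 554 in HS and 439, 422 and 442 in MC+HS, with no overlap between vector and mock arrays. It was 2.11-fold higher over both vectors (1.08 ± 0.19, limma adjusted p = 0.0369) and passed in HS (1.28 ± 0.22, adjusted p = 0.0425), not in MC+HS (0.88 ± 0.22, adjusted p = 0.239). Both calls were lost without mock replicate 1, without mock replicate 3 and without any one vector array other than HS replicate 1 (adjusted p up to 0.27). Fcgr2b 1451941_a_at differed by 1.08 ± 0.41 (adjusted p = 0.656), and rose 2.63-fold without HS replicate 1 (adjusted p = 0.000591). In Affymetrix names, the ending s_at marks probes shared between transcripts and x_at probes that can bind similar sequences. Fcgr2b and Fcgr3 have closely similar extracellular parts, so the share of each gene in these signals is uncertain. The fifth Fcgr2b probe set, 1447622_at, was not above the 40th percentile on any array.

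**Figure D2:**
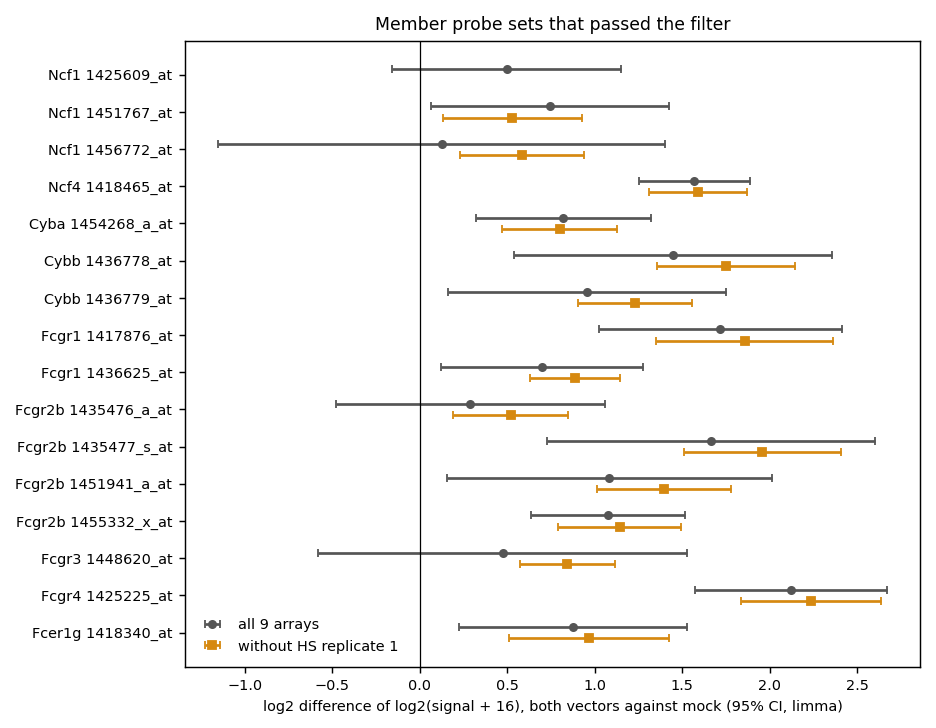
Log2 difference of both vectors against mock for the 16 tested member probe sets (x axis, log2(signal + 16), 95% confidence intervals from limma), with all 9 arrays and without HS replicate 1. Intervals narrow without that array, and the 4 Fcgr2b probe sets spread from 0.29 to 1.66 with all arrays.

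Mock replicate 2 was the highest mock array for 14 of the 16 tested members, beside 33.2% of all tested probe sets. For the brightest probe sets of the 9 genes it lay from 1.09 (Fcgr2b) to 2.28 times (Fcgr1) the mean of the other mock arrays. The summed signal of the 9 genes was 5008, 7802 and 5301 on the mock arrays, 7200, 11518 and 13472 on the HS arrays and 11855, 10640 and 10685 on the MC+HS arrays. Mock replicate 2 therefore lay above HS replicate 1 and below the other vector arrays. Without mock replicate 2 the count over both vectors stayed at 4 of 16 (1.04% of all).

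The direct comparison of MC+HS with HS asked whether the purification changed these transcripts. None of the 16 member probe sets passed (limma, 0% of all tested probe sets), and 847 of all 28257 had an unadjusted p under 0.05, none of them a member. For the genes that rose, the 95% confidence interval of the difference ran from -0.34 to 0.39 for Ncf4, from -0.78 to 0.49 for Fcgr4 and from -0.71 to 0.90 for Fcgr1. Ncf1 had the widest interval, from -0.71 to 2.24. Without HS replicate 1, Cybb 1436778_at gave -0.66 ± 0.22 in MC+HS against HS (interval from -1.14 to -0.17, limma adjusted p = 0.558), and Fcgr2b 1455332_x_at gave -0.53 ± 0.20 (adjusted p = 0.578). Both had unadjusted p under 0.05 among the 15 members tested there, as had 2140 of all 27973 tested probe sets. Neither passed the adjusted threshold, where 0.00357% of all tested probe sets did.

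Whether the members changed unequally was tested within arrays, for 6 gene pairs, as the log2 signal of 1 gene minus that of the other on the same array, 6 vector arrays against 3 mock arrays. A 2-sided exact permutation test over the 84 splits cannot give a p below 0.0238, and p values were adjusted over the 6 pairs. Ncf4 gained on Cyba by 0.75 (exact p = 0.0238, adjusted 0.0357), with a mock mean of -2.97 ± 0.09 (SD, n = 3) and a vector mean of -2.22 ± 0.21 (SD, n = 6). It gained on Ncf1 by 1.44 (exact p = 0.0238, adjusted 0.0357), and by 1.02 without HS replicate 1. Against Cybb the difference was 0.12 (exact p = 0.881), so Ncf4 and Cybb were not separated. In the pairs with Cyba and Ncf1 all 6 vector arrays lay above all mock arrays. The Ncf1 pair used the brightest Ncf1 probe set, on which HS replicate 1 was the lowest array, at 125. On Ncf1 1451767_at that array was the highest, at 341, and Ncf4 was not tested against this probe set.

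Fcgr4 gained on Fcgr2b by 1.83 and Fcgr1 gained on Fcgr2b by 1.43 (exact p = 0.0238 and adjusted 0.0357 for each), again with all 6 vector arrays above mock. Fcgr3 against Fcgr2b gave 0.19 (exact p = 0.5). These values used the brightest Fcgr2b probe set and depended on it. With the second brightest, Fcgr4 gained 0.46 (exact test, adjusted p = 0.214) and Fcgr1 0.05 (adjusted p = 0.976), while Fcgr3 lost 1.19 (log2 difference -1.19, adjusted p = 0.0476). The order of activating and inhibitory receptors is thus not settled by these probe sets, and this alternative was chosen after the data had been seen.

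**Figure D3:**
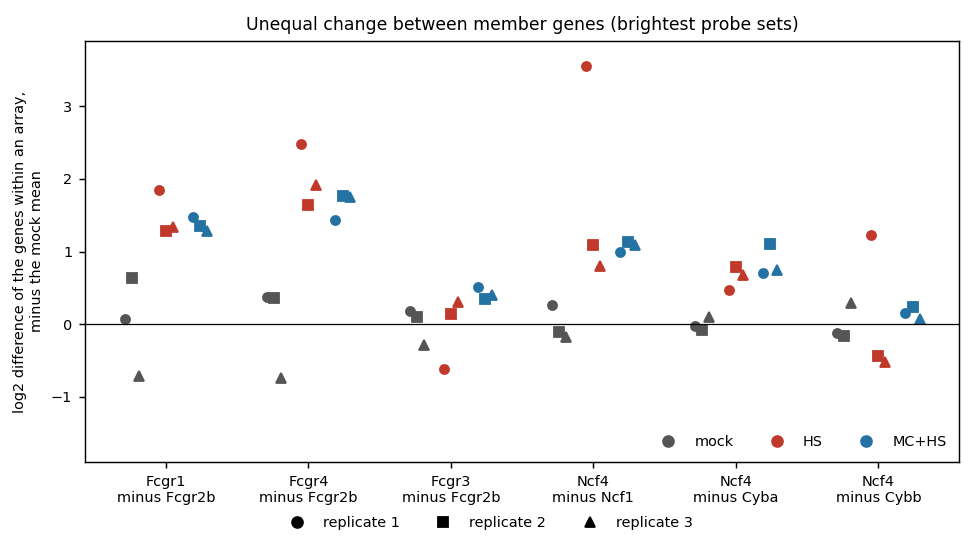
Log2 signal of the first gene minus the second within each array, with the mock mean set to 0 (y axis), for 6 pairs of member genes by their brightest probe sets. Colours are the groups and marker shapes the replicates. All vector points lie above all mock points for Fcgr1 and Fcgr4 over Fcgr2b and for Ncf4 over Ncf1 and Cyba. HS replicate 1 reaches 3.56 for Ncf4 over Ncf1.

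Of the other genes that act with the oxidase, 1 of 14 tested rose over both vectors and 0 fell, beside 1.24% of all genes higher and 0.0675% lower. It was Itgb2, the beta chain of the leukocyte integrins, at 2.00-fold (SE 0.19 on the log2 scale, limma adjusted p = 0.0496). The call was lost without the filter (adjusted p = 0.058). Rac2, the GTPase that completes the oxidase in leukocytes, gave 0.75 ± 0.23 (adjusted p = 0.38). The median of the list was -0.12, equal to that of all genes. Without HS replicate 1 both Itgb2 (1.04 ± 0.14, adjusted p = 0.00125) and Rac2 (0.88 ± 0.16, adjusted p = 0.00834) rose, beside 4.73% of all genes higher and 0.628% lower. Cybc1, a chaperone of the core, differed by 0.14 ± 0.14 and Rac1 by -0.45 ± 0.47, and neither passed. Of the other NADPH oxidases only 1 gene was tested, Poldip2, a partner of Nox4, at 0.03 ± 0.18 (adjusted p = 0.966), while Nox4 and Duox1 did not pass the filter.

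In signalling downstream of Fc receptors 1 of 17 tested genes rose and 0 fell, with a list median of 0.24. It was Lcp2, an adaptor of the Syk pathway (1.01 ± 0.15, limma adjusted p = 0.0139). Dok1, an adaptor of inhibitory signalling, gave 0.71 ± 0.22 (adjusted p = 0.355) and passed the filter only through vector arrays. The kinase gene Syk itself differed by 0.21 ± 0.17 (adjusted p = 0.926) and Inpp5d, the lipid phosphatase recruited by Fcgr2b, by 0.23 ± 0.22 (adjusted p = 0.926). Without HS replicate 1, Pik3ap1 (1.38 ± 0.17, adjusted p = 0.00067) and Plcg2 (0.95 ± 0.23, adjusted p = 0.0458) rose as well, 3 of 17 in all.

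Of the other Fc receptors 3 of 13 listed genes were tested. Trim21, the cytosolic antibody receptor, rose by 1.38 ± 0.21 (limma adjusted p = 0.0146), and Fcrls, an Fc receptor-like gene typical of microglia, fell by 1.56 on the log2 scale (SE 0.30, adjusted p = 0.0484), a call lost without the filter (adjusted p = 0.0816). The neonatal receptor gene Fcgrt differed by 0.06 ± 0.19 (adjusted p = 0.949). Among other adaptors with activation motifs and their partner receptors, 1 of 11 rose, the C-type lectin gene Clec4e, which pairs with Fcer1g (1.85 ± 0.26, adjusted p = 0.0116). Clec4e and Treml2 passed the filter only through vector arrays. Clec4e also rose without the filter (limma adjusted p = 0.0128). Treml2 differed by 0.91 ± 0.29 (adjusted p = 0.404) and rose without HS replicate 1 (1.09 ± 0.20, adjusted p = 0.0087). Tyrobp, the adaptor of Trem receptors, differed by 0.07 ± 0.39 (adjusted p = 0.97). In oxidant defence 0 of 17 genes passed with limma and 1 had an unadjusted p under 0.05. It was Slc7a11, the cystine transporter gene (0.95 ± 0.22, adjusted p = 0.114). Hmox1, heme oxygenase, gave 0.93 ± 0.42 (adjusted p = 0.864). Without HS replicate 1, Slc7a11 (0.83 ± 0.16, adjusted p = 0.0122) and Nfe2l2, the master regulator of antioxidant genes (0.49 ± 0.10, adjusted p = 0.0152), rose.

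The genes whose profile over the 9 arrays lay nearest to a member called by its brightest probe set were found by the root mean square distance between log2 profiles centred on the mock mean. For Ncf4 they were Pml (distance 0.0931), Cd93 (0.171) and Anxa2 (0.178). For Fcgr4 they were Irgm2 (0.132), Cd274 (0.133) and Oasl1 (0.190), and for Fcgr1 they were Epsti1 (0.132), Cp (0.164) and Csf2rb (0.165). Interferon-inducible genes among them include Irgm2, Oasl1 and Epsti1, and this naming is not complete. Pml encodes a nuclear body protein, Cd93 a receptor of endothelial and myeloid cells, and Cp the copper protein ceruloplasmin. Irgm2 differed by 2.25 ± 0.25 over both vectors, against 2.12 ± 0.24 for Fcgr4, and Pml by 1.55 ± 0.17, against 1.57 ± 0.14 for Ncf4 (log2 differences). The genes were chosen by this distance, so differences of near-equal size follow from the choice. The likeness is a description over 9 arrays.

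Because the tissue was bulk, more cells of a type and more RNA per cell cannot be told apart. Over both vectors 4 of 10 tested monocyte markers rose. They were Chil3 (3.06 ± 0.26, limma adjusted p = 0.00134), Ccr1 (1.52 ± 0.15, adjusted p = 0.0021), Ly6i (2.06 ± 0.34, adjusted p = 0.0229) and Ms4a4c (3.15 ± 0.58, adjusted p = 0.04). Chil3, Ccr1 and Ly6i passed the filter only through vector arrays, as 4 of the 10 tested markers did, so their place among the tested genes was decided by the difference itself. In the fit without a filter, where this selection is absent, Chil3, Ccr1 and Ly6i still rose (limma adjusted p = 0.00195, 0.00441 and 0.0368), Ms4a4c did not pass (adjusted p = 0.058), and Ms4a8a, which the filter had left out, rose (1.03 ± 0.17, adjusted p = 0.0343). Plac8, Ccr2, S100a4, Fn1, F13a1 and Vcan gave 2.6, 0.933, 0.615, 0.023, -0.056 and -0.06 there, and were called in neither fit. The summed signal of the 11 monocyte markers on the array was 2503 to 4249 in mock, with mock replicate 2 highest, 3042 to 9280 in HS and 7028 to 7881 in MC+HS. Of these sums, Plac8 gave 204.7 to 976.5 in mock, 579 to 3575.5 in HS and 2497.9 to 2831.1 in MC+HS. Of 6 tested neutrophil markers S100a8 (1.73 ± 0.22, adjusted p = 0.00687) and S100a9 (1.83 ± 0.22, adjusted p = 0.00529) rose. Both passed the filter only through vector arrays, and both also rose without the filter (limma adjusted p = 0.0106 and 0.00976). The granule genes Camp, Mpo, Elane and Mmp8 and the receptor gene Cxcr2 did not pass the filter. Ltf, Ngp, Mmp9 and Csf3r were tested and not called. In the fit without a filter they gave -0.385, -0.128, 0.318 and 0.333 over both vectors. The neutrophil sum was 962 to 1124 in mock, 1604 to 1819 in HS and 1289 to 1558 in MC+HS.

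Of 12 tested microglia markers 4 fell and 0 rose over both vectors. The list median was -0.45 with all arrays and -0.05 without HS replicate 1, where 4 markers fell as well. Without mock replicate 2, 1 marker fell, Gpr34 (-1.07 ± 0.18, limma adjusted p = 0.0349). With all arrays Gpr34 fell by 1.14 on the log2 scale (SE 0.15, limma adjusted p = 0.00746), and P2ry12 (-0.87 ± 0.14, adjusted p = 0.02), Siglech (-0.94 ± 0.18, adjusted p = 0.0437) and Fcrls also fell, whereas Aif1 differed by 0.47 ± 0.43 and Csf1r by -0.12 ± 0.19, neither of which passed. Siglech and Fcrls were also lost without the filter (limma adjusted p = 0.0851 and 0.0816). In that fit Tmem119, P2ry13 and Selplg gave 0.252, 0.077 and 0.066 over both vectors. Cx3cr1, Olfml3 and Sall1 gave -0.804, -0.588 and -0.315 there and were lowest on HS replicate 1, at 89.9, 55.6 and 142. None of these markers was called. The microglial sum was 16068 to 19478 in mock, 11107 to 17506 in HS and 14714 to 18064 in MC+HS. Border macrophage markers had 0 of 6 past the threshold, with a median of -0.30 and the smallest p for Cbr2 (-1.34, adjusted p = 0.0878) and Mrc1 (-0.77, adjusted p = 0.138). In the fit without a filter, Stab1 and Ms4a7 gave 0.43 and 0.181 over both vectors, and Pf4 and F13a1 gave -0.547 and -0.056. None of them was called there. Leaving out HS replicate 1, 2 of 6 border markers fell, Cbr2 (-1.25 ± 0.26, limma adjusted p = 0.019) and Mrc1 (-0.81 ± 0.18, adjusted p = 0.028). Their sum was 1066 to 1689 in mock, 924 to 1194 in HS and 1062 to 1110 in MC+HS. NK cell markers had 2 of 7 higher, Gzmb (4.63 ± 0.47, adjusted p = 0.00265) and Gzma (3.13 ± 0.27, adjusted p = 0.00134). Both passed the filter only through the 6 vector arrays, and both also rose without the filter (limma adjusted p = 0.00367 and 0.00195). Klrd1, Klrk1, Eomes and Klrg1 gave 0.945, 0.688, 0.502 and 0.245 without the filter and Prf1 gave -0.475. They were called in neither fit. The NK cell sums were 568 to 654 in mock, 1532 to 3106 in HS and 1238 to 2453 in MC+HS. Of the T cell and B cell markers 3 of 8 and 2 of 6 on the array passed the filter, with 0 called, and Cd3d, Cd3g, Cd79a and Cd79b were below it.

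Ppp1r1b, Drd1, Drd2, Penk and Pde10a, which mark striatal neurons, passed the filter, with 0 of 7 striatal neuron and 0 of 7 astrocyte and oligodendrocyte markers called with all arrays. When HS replicate 1 was left out, the astrocyte gene Gfap rose over both vectors (1.37 ± 0.22, limma adjusted p = 0.00369), and in HS against mock both Gfap (1.47 ± 0.27, adjusted p = 0.012) and Aqp4, the astrocyte water channel gene (0.55 ± 0.13, adjusted p = 0.0436), rose. Gfap was 1198, 2601 and 1172 in mock, again with mock replicate 2 highest, 886, 3988 and 4614 in HS and 3836, 3796 and 3661 in MC+HS. On HS replicate 1 these lists averaged -1.93 and -1.89 against the mock mean, while the other vector arrays lay between -0.23 and 0.42. The 9 member genes averaged 0.21 on that array, against 1.07 to 1.46 on the other vector arrays. The part of any of these cell types in the members' rise was not tested.

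**Figure D4:**
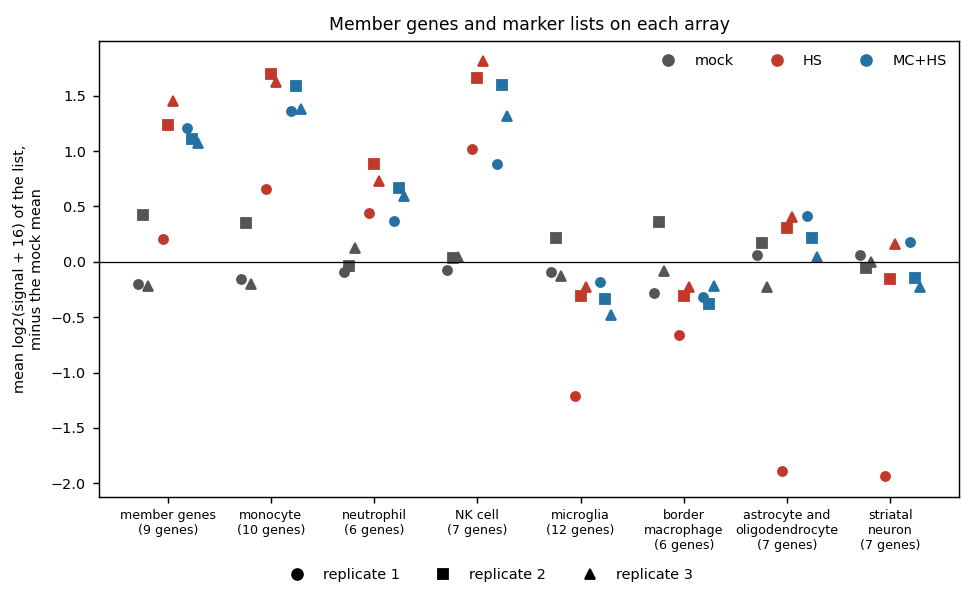
Mean log2(signal + 16) of the 9 member genes and of 7 marker lists on each array, with the mock mean set to 0 (y axis). Colours are the groups and marker shapes the replicates, and the number of genes is given under each list. The members lie at 0.21 on HS replicate 1, below mock replicate 2 at 0.42, and at 1.07 to 1.46 on the other vector arrays. Mock replicate 2 is also raised in the monocyte (0.35), border macrophage (0.36) and microglia (0.22) lists. HS replicate 1 lies near -1.9 for the glial and neuronal lists.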

How the data were processed

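Each of 9 mice gave 1 array, labelled from 5 µg of total RNA per the labels' protocols. The deposited intensity values are linear probe set signals. The submitters' processing notes name GCOS 1.4.0.036 as the authors' tool. Their summarisation and scaling, and the genome build of the array, are not given in the sources used here, and no detection calls were used. Signals were turned into log2(signal + 16), array medians were aligned, 64 control probe sets were left out, and probe sets not above the 40th percentile of their array on at least 3 arrays were removed, which left 28257. Fold changes on this scale understate changes of dim genes. In the annotation 34945 probe sets had 1 symbol, 932 had several and 9160 had none, and 34741 single symbols matched RefSeq by Entrez identifier, with 0 changed. A gene with several probe sets is given by the brightest, except for members, where all are given.

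Tests used limma 3.58.1 in R 4.3.3 (lmFit and trended eBayes) over the 9 arrays with group as the only term, two-sided, called at an adjusted p under 0.05. Gene pairs used exact permutation tests in scipy 1.17.1. On simulated data, the fit for both vectors against mock recovered 27% of 100 probe sets changed 2-fold and 79% of 100 changed 4-fold, and 85% and 98% without HS replicate 1. The simulated noise was normal and independent, with each probe set's residual SD. It held no error shared across an array, so these rates do not measure recovery on the real arrays. The number of arrays limits the precision: the 95% interval for both vectors against mock extended a median of 0.522 from the estimate, and 0.262 without HS replicate 1.

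Members and gene lists were chosen with earlier results of these data known. Named genes were all member probe sets, up to 4 called genes per list or, under 2 calls, the 2 with the smallest p (given here for the pathway and myeloid lists), and the 3 nearest profiles of each member gene called by its brightest probe set, which leaves out Fcgr2b. Other genes are named as defining members of their list and were chosen after their values were seen. Alternatives changed the pseudocount, filter, scaling, trend, array weights, arrays fitted, replicate block, and each array in turn.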

Additional observations from a re-analysis of the deposited data

How the results depend on the processing

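Ncf4 and Fcgr4 kept their call over both vectors under each of the 18 alternatives run. Fcgr1 lost it under 9 of them and Fcgr2b 1455332_x_at under 11. Of 19 alternatives each, the calls in HS were lost under 1 for Ncf4, 4 for Fcgr4 and 12 for Fcgr2b 1455332_x_at, and those in MC+HS under 4 for Ncf4 and 6 for Fcgr4. Probe sets called in HS, MC+HS and both vectors against mock and in MC+HS against HS ranged from 67 to 930, 10 to 934, 106 to 1217 and 0 to 1 when 1 array at a time was left out, and member probe sets from 1 to 11, 0 to 11, 2 to 12 and 0 to 0. The upper ends came without HS replicate 1. A filter at the 60th percentile, which tests fewer probe sets, called 136 in HS against mock. Without scaling, MC+HS against mock had 69 calls and 0 members, and both vectors against mock had 229 calls and 2 members, of 28257 tested probe sets. Array quality weights, whose estimation stopped before converging, ran from 0.0148 on HS replicate 1 to 48.7 on HS replicate 2. HS replicate 3 had 0.249, so the HS group rested almost wholly on HS replicate 2. Of 28257 tested probe sets, this weighted fit called 7776 with 15 members in HS and 2146 with 11 in MC+HS. It called 3532 with 13 in both vectors and 6536 with 2 in MC+HS against HS. Fits on the groups compared alone called 16 with 0 members in HS and 703 with 10 in MC+HS. The cause of these shifts was not tested.

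The replicate numbers share only a number: deviations of same-numbered arrays correlated from -0.168 to 0.287. With a replicate block, counts were 148, 95, 250 and 0 in the same order, with 2, 2, 3 and 0 members.

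Directions that turned were all in differences that did not pass in the main fit. After turning, Fcgr3 against Fcgr2b passed by the second brightest Fcgr2b probe set, as given above. With array weights 15 of 16 members were called higher in HS against mock, beside 4017 of all 28257 tested probe sets. The 15 member probe sets covered all 9 genes, Ncf1 among them. In that fit the HS group rested almost wholly on HS replicate 2. In MC+HS against HS, Ncf4, Fcgr1, Fcgr2b and Fcer1g gave -0.25, -0.18, -0.062 and -0.18 without scaling and -0.26, -0.25, -0.13 and -0.28 with quantile normalization. Ncf4 gave -0.007 with a pseudocount of 64, and with array weights Ncf1, Fcgr1 and Fcgr2b gave 0.000, -0.15 and -0.21. Ncf1 in HS against mock gave 0.043 without scaling and 0.41 with weights. Leaving out 1 array gave, in MC+HS against HS, -0.66 to 0.31 for Cybb, -0.089 to 0.25 for Fcer1g, -0.19 to 0.28 for Fcgr1, -0.25 to 0.47 for Fcgr2b, -0.05 to 1.13 for Fcgr3, -0.38 to 0.063 for Fcgr4, -0.15 to 1.32 for Ncf1 and -0.020 to 0.073 for Ncf4. In HS against mock it gave -0.075 to 0.64 for Fcgr2b, -0.31 to 0.87 for Fcgr3 and -0.81 to 0.66 for Ncf1, and over both vectors -0.15 to 0.58 for Ncf1.

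Leaving out 1 array gave pair differences of 1.08 to 1.75 for Fcgr1 over Fcgr2b, 1.46 to 2.02 for Fcgr4 over Fcgr2b, 0.04 to 0.34 for Fcgr3 over Fcgr2b, 1.02 to 1.58 for Ncf4 over Ncf1, 0.68 to 0.80 for Ncf4 over Cyba and -0.10 to 0.27 for Ncf4 over Cybb, with too few splits left for the exact test to pass. By the second brightest Fcgr2b probe set, Fcgr1, Fcgr4 and Fcgr3 gave 0.054, 0.46 and -1.19. By the third, Fcgr3 gave -0.61, and by the fourth Fcgr1 gave 0.64 and Fcgr3 -0.60. These probe set alternatives were chosen after seeing the data.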
